A study of Ovis aries with 9 samples.

Results

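ADGRL2, RAB4A, NUDT16, TEAD4 and BEND7 are 5 genes of ovine granulosa cells (GCs) whose transcripts took different shares of the gene's RNA at different glucose doses. They were 5 of the 39157 genes in the transcript table and carried 18 of its 60784 transcripts, and 9203 genes in all had 2 or more transcripts. All transcripts listed under each gene name were taken, and in each library the share of a transcript was computed as its FPKM over the summed FPKM of the gene. FPKM counts fragments relative to transcript length and to the size of the library, so levels can be set side by side between transcripts and genes. The 5 genes were chosen by these very values, shares and totals that differed between the glucose groups in the same 9 libraries. The values below are therefore a description, with no test, and shares of 1 gene sum to 100%, so that a larger share of one transcript means a smaller share of another.

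GCs are the somatic cells that line the ovarian follicle and nourish the oocyte. One gene can give several transcripts by alternative start sites, splicing or polyadenylation, and these may encode different proteins or only differ in untranslated parts. A change in the balance of transcripts can leave the total RNA of the gene as it was, so a table of gene levels need not show it.

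The GCs came from thin-tailed Han ewes, aged 1 year per the series' text and 1 year or somewhat older per the study's methods, from punctured follicles of 3 to 5 mm, and the suspensions of many follicles were pooled before culture. Every group then spent 8 h without glucose and serum. The control group (CON) received 0 mM glucose, the low group (LOW) 8.4 mM and the high group (HIGH) 33.6 mM for another 24 h, and total RNA of 3 samples per group was sequenced. The cells of all groups thus stem from pooled follicles and not from separate animals, so the 3 replicates of a group are replicates of culture at most, and their spread does not cover animals. A lower level in such bulk RNA can mean fewer cells with the transcript or less of it per cell, and these cannot be told apart.

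In the deposited count table, an FPKM of 1 stood for 57.6 to 71.3 count units per kilobase of genomic span in the control libraries. The factor was 48.0 to 65.0 at the low dose and 50.2 to 59.9 at the high dose. Since that table holds no counts of reads, these factors are not numbers of fragments. The GC markers INHA (8.57 to 19.7 FPKM), NR5A1 (9.22 to 14.2) and FST (7.38 to 10.8) were found in every library and FSHR was low (0.218 to 0.564), while CYP19A1, FOXL2 and AMH were not listed under these symbols. The summed level of 6 fibroblast and smooth muscle markers ranged from 4743 to 6291 FPKM for CON, from 5008 to 5288 for LOW and from 3871 to 5319 for HIGH, led by LUM, TAGLN and ACTA2. Its members did not run alike, with group means of 26.5, 24.3 and 80.2 FPKM for COL1A1, 30.8, 34.2 and 47.2 for PDGFRA and 2095, 1939 and 1472 for TAGLN in CON, LOW and HIGH. The summed GC markers covered 45.7 to 51.0 FPKM (CON), 39.2 to 42.3 (LOW) and 39.3 to 44.1 (HIGH), and the theca markers 7.16 to 8.04, 5.97 to 6.98 and 3.82 to 6.29. The GC markers did not run alike either. In the same order, group means were 15.2, 13.2 and 9.93 FPKM for INHA and 5.61, 4.16 and 7.41 for GATA4. The theca sum was nearly all STAR, with means of 7.12, 6.20 and 4.74. The other theca markers were low, with CYP17A1 at 0.131 to 0.412 FPKM and INSL3 listed at 0 in 6 libraries. The endothelial marker CDH5 was listed at 0 in all 9 libraries and the 4 immune markers summed to 14.3 to 20.6 FPKM, most of it from CD68 and CD14. The part of these cell markers and of the sequencing depth in the transcript shares was not tested.

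Of the 18 transcripts, 9 were annotated and carry the gene name, and 9 were assembled by the authors and carry a TCONS number. The 3 ADGRL2 transcripts (gene ENSOARG00000013620) had the same ends, chromosome 1 from 57808412 to 58061674. RAB4A (ENSOARG00000003034) lay on chromosome 25, where the assembled TCONS_00180270 spanned 588263 to 635461 and the annotated RAB4A-201 and RAB4A-202 spanned 611279 to 625109 inside it. NUDT16 (ENSOARG00000009261) lay on chromosome 1 from 256657025 to 256660362, TEAD4 (ENSOARG00000010808) on chromosome 3 from 210770661 to 210802314, and BEND7 (ENSOARG00000006059) on chromosome 13 from 27162612 to 27245036. The genome build of these positions is not given in the sources used here, and strand, exons and sequences were not used here, so a transcript is described by its ends alone.

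**Figure D1:**
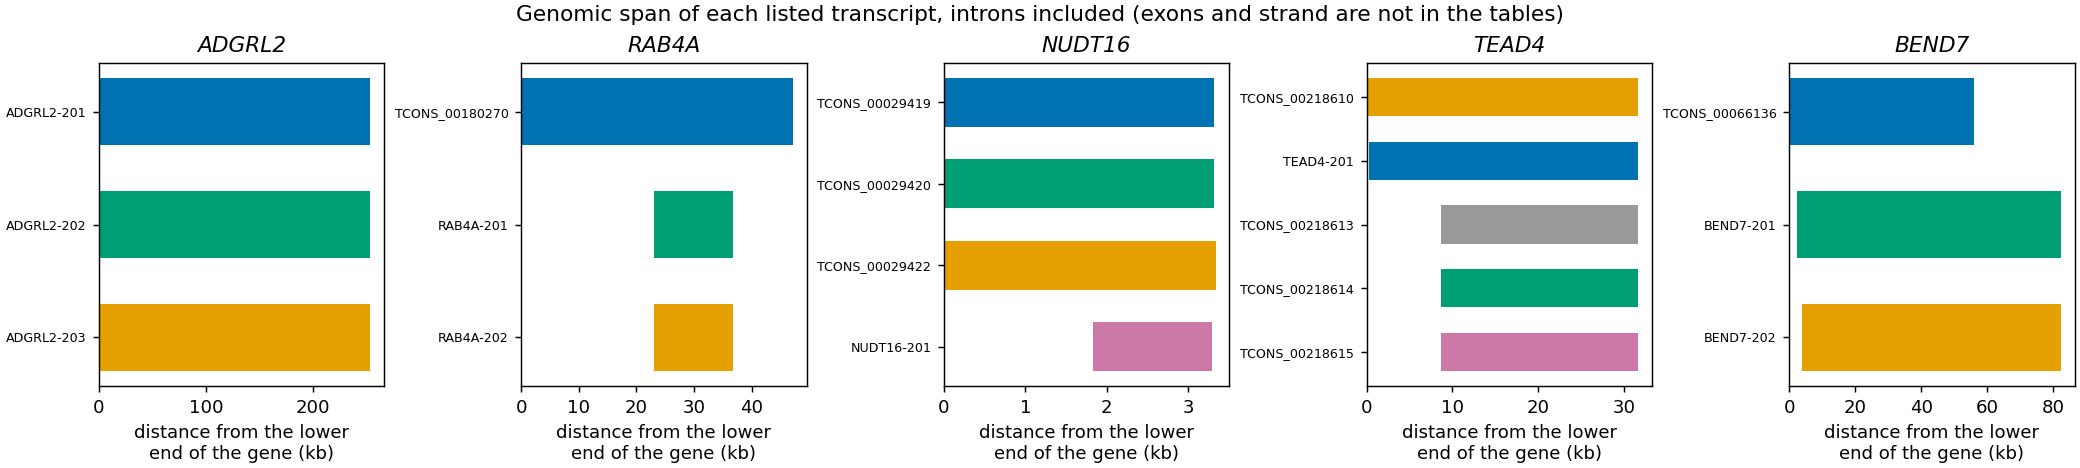
The genomic span of each listed transcript is drawn for the 5 genes, introns included, with the distance from the lower end of the gene in kb on the horizontal axis and 1 bar per transcript. The 3 ADGRL2 bars coincide, the 2 annotated RAB4A bars lie inside the assembled one, and 3 of the 5 TEAD4 bars have their lower end 8684 bases above that of TCONS_00218610.

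The share plot gives the whole pattern before the single genes. ADGRL2 held one transcript in CON and another in LOW and HIGH, NUDT16 held a different transcript in LOW than in the other groups, and RAB4A had a smaller share of its annotated transcript in LOW. TEAD4 and BEND7 were set apart in HIGH. There 1 transcript of TEAD4 was listed at 0 and another was held, and BEND7 held a transcript that was listed at 0 in CON and LOW.

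**Figure D2:**
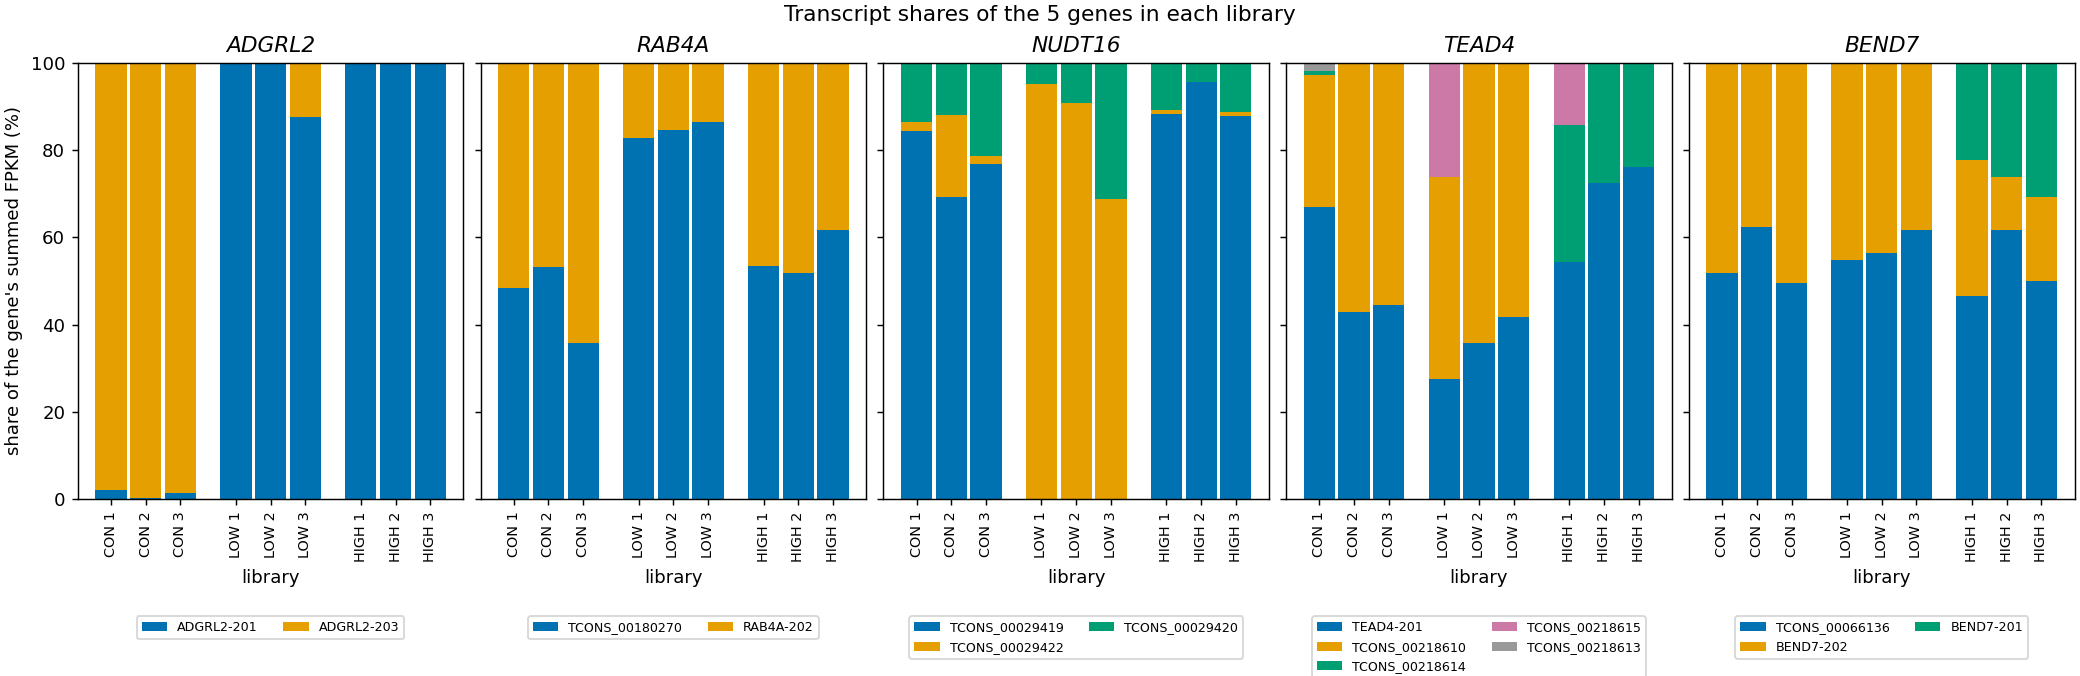
Stacked bars give the share (%) of each transcript in the summed FPKM of its gene, with the 9 libraries on the horizontal axis and 1 panel per gene; transcripts under 1% in every library are not drawn. ADGRL2-201 takes 0.192 to 2.04% in CON and 87.6 to 100% elsewhere, and TCONS_00029419 of NUDT16 takes 0% in the 3 LOW libraries and 69.2 to 95.6% in the others.

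ADGRL2 encodes latrophilin 2, an adhesion G protein-coupled receptor of the cell surface that binds teneurins and FLRT proteins of neighbouring cells. ADGRL2-201 was near 0 without glucose, at 0.110, 0.00829 and 0.0554 FPKM, and reached 3.89, 3.88 and 4.43 at the low dose and 4.66, 4.91 and 3.75 at the high dose. ADGRL2-203 was the reverse, with 5.26, 4.31 and 4.33 FPKM without glucose and 0, 0 and 0.630 at the low dose, and all HIGH libraries listed it at 0. No CON library overlapped with any library of the other groups for either transcript, and the third, ADGRL2-202, was listed at 0 throughout.

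As a share, ADGRL2-201 made up 1.17% ± 0.928 (SD, n = 3) of the gene in CON, 95.9% ± 7.19 in LOW and 100% in each HIGH library. LOW replicate 3 was the only library with glucose in which ADGRL2-203 was found, at 12.4% of the gene. LOW and HIGH overlapped, since 2 of the LOW libraries also stood at 100%. The difference of 98.8 percentage points between HIGH and CON was 92.6 when 0.1 FPKM was added to each transcript. The total of the gene did not separate the groups. Scaled on the library median, the summed ADGRL2 FPKM was 4.53 ± 0.273 in CON, 4.48 ± 0.825 in LOW and 4.37 ± 0.391 in HIGH, and all groups overlapped.

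RAB4A encodes a small GTPase of early endosomes that sends receptors and other cargo back to the cell surface and takes part in the traffic of the glucose transporter GLUT4. RAB4A-202 had 3.79, 2.80 and 4.10 FPKM in CON, 0.696, 0.601 and 0.481 in LOW, and 2.57, 2.80 and 1.64 in HIGH. TCONS_00180270 had 3.55, 3.20 and 2.30 FPKM in CON, 3.38, 3.30 and 3.15 in LOW, and 2.96, 3.02 and 2.65 in HIGH. The LOW libraries were thus below all others for the annotated transcript. The assembled one overlapped between CON and both other groups, but all its LOW libraries lay above those of HIGH. RAB4A-201 stayed at 0.0109 FPKM or below.

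The share of RAB4A-202 was 51.6, 46.7 and 64.1% in CON, 17.1, 15.4 and 13.2% in LOW, and 46.5, 48.1 and 38.2% in HIGH. The group means were 54.1% ± 8.96, 15.2% ± 1.95 and 44.3% ± 5.36 (SD, n = 3). LOW overlapped with neither group, and CON and HIGH overlapped. Here the total differed as well. The scaled sum of the gene was 6.56, 5.90 and 6.65 FPKM in CON, 4.12, 4.10 and 3.91 in LOW, and 5.41, 5.49 and 4.50 in HIGH. No group overlapped with another, scaled or as deposited, and the log2 difference of CON over LOW was 0.66 against 0.32 for CON over HIGH. The mean FPKM of TCONS_00180270 was 3.01, 3.28 and 2.88 in CON, LOW and HIGH. Its larger share in LOW thus went with less RAB4A-202. RAB4A was the only one of the 5 genes whose pair of transcripts with opposite share changes had neither end within 50 bases of each other. The lower ends were 23016 and the upper ends 10352 bases apart. The difference of 38.9 points between CON and LOW was 21.2 points in shares of the deposited count table, which weights transcripts by genomic span, and was 0.637 points among annotated transcripts alone, where RAB4A-202 is nearly the whole gene because the assembled one is left out.

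NUDT16 encodes a nudix hydrolase that cleaves inosine diphosphates and can remove the cap from RNA. TCONS_00029419 had 5.02, 4.41 and 7.72 FPKM in CON, was listed at 0 in the 3 LOW libraries, and had 2.82, 4.08 and 5.00 in HIGH. TCONS_00029422 had 0.119, 1.20 and 0.180 FPKM in CON, 5.47, 5.54 and 4.12 in LOW, and 0.0282, 0 and 0.0550 in HIGH. CON and HIGH thus held one transcript and LOW another, and the middle dose did not lie between the outer ones. The annotated NUDT16-201 reached 0.008998 FPKM in CON replicate 2 and was listed at 0 in the other 8 libraries, so the gene's RNA was assigned almost wholly to assembled transcripts.

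As a share, TCONS_00029419 made up 84.4, 69.2 and 76.8% of NUDT16 in CON, 0% in LOW, and 88.3, 95.6 and 87.8% in HIGH. TCONS_00029422 made up 2.003, 18.8 and 1.79% in CON, 95.3, 90.9 and 68.9% in LOW, and 0.882, 0 and 0.966% in HIGH. For both transcripts no group overlapped with another, and CON lay below HIGH for the former (76.8% ± 7.61 against 90.6% ± 4.36). The third assembled transcript, TCONS_00029420, had 15.6% ± 5.09 in CON, 15.0% ± 14.1 in LOW and 8.82% ± 3.83 in HIGH, and LOW replicate 3 was highest at 31.1%. The 3 assembled transcripts had the same lower end, and their upper ends lay within 21 bases of each other. The difference of 90.6 points between HIGH and LOW was 83.2 points with 0.1 FPKM added to each transcript.

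The scaled NUDT16 total was 5.31, 6.26 and 10.4 FPKM in CON, 5.80, 6.41 and 6.40 in LOW, and 3.13, 4.02 and 5.96 in HIGH. All groups overlapped on this scale. As deposited, the totals of HIGH (3.20, 4.26 and 5.69) lay below those of CON (5.95, 6.37 and 10.05) and LOW (5.74, 6.10 and 5.97), so whether HIGH overlapped with the other groups depended on the scaling, while the order of the group means did not.

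TEAD4 encodes a transcription factor of the Hippo pathway that binds DNA and is switched on by the co-activators YAP1 and WWTR1. TCONS_00218610 had 0.818, 1.09 and 1.05 FPKM in CON, 0.923, 1.32 and 0.788 in LOW, and was listed at 0 in the 3 HIGH libraries. TCONS_00218614, whose lower end lies 8684 bases further in and whose upper end is the same, was listed at 0 in all LOW libraries and in 2 of CON (0.0205 in CON replicate 1), and had 1.05, 1.00 and 0.681 FPKM in HIGH. The annotated TEAD4-201 had 1.80, 0.812 and 0.843 FPKM in CON, 0.546, 0.738 and 0.565 in LOW, and 1.83, 2.63 and 2.17 in HIGH, where all libraries lay above the others. HIGH was thus apart from CON and LOW in FPKM for all 3 transcripts, for TEAD4-201 narrowly (1.83 against 1.80). The FPKM of TEAD4-201 did not overlap between CON and LOW either.

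In shares, TCONS_00218610 made up 30.5, 57.2 and 55.5% of TEAD4 in CON, 46.4, 64.1 and 58.2% in LOW, and 0% in HIGH. CON and LOW overlapped, and CON replicate 1 was lowest of the 6. TCONS_00218614 took 31.3, 27.6 and 23.8% in HIGH against at most 0.764% elsewhere, and TEAD4-201 stood at 51.4% ± 13.5 in CON, 35.0% ± 7.21 in LOW and 67.6% ± 11.6 in HIGH. For TEAD4-201 the shares of CON (42.8 to 66.9%) and HIGH (54.4 to 76.2%) overlapped. Its shares in LOW (27.4 to 41.8%) overlapped with neither group. TCONS_00218615 was found in a single library of LOW (26.2%) and of HIGH (14.3%), replicate 1 in both. The difference of 56.3 points between LOW and HIGH for TCONS_00218610 was 45.5 points with 0.1 FPKM added to each transcript. The scaled total was 2.40, 1.87 and 1.97 FPKM in CON, 2.01, 2.16 and 1.45 in LOW, and 3.29, 3.42 and 2.99 in HIGH. HIGH did not overlap with CON or LOW, also as deposited, with a log2 difference of -0.65 for CON over HIGH and -0.81 for LOW over HIGH.

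BEND7 encodes a protein with BEN domains, a fold found in DNA-binding and chromatin factors. BEND7-201 was listed at 0 in the 6 libraries of CON and LOW and had 1.77, 2.25 and 1.54 FPKM in HIGH. BEND7-202 had 4.70, 2.43 and 1.86 FPKM in CON, 3.28, 2.53 and 1.99 in LOW, and 2.49, 1.05 and 0.966 in HIGH. TCONS_00066136 had 5.08, 4.02 and 1.84 FPKM in CON, 3.99, 3.28 and 3.18 in LOW, and 3.72, 5.32 and 2.495 in HIGH. Only BEND7-201 separated a group on the FPKM scale, since the levels of the other 2 transcripts overlapped between all groups.

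The share of BEND7-201 in HIGH was 22.2, 26.1 and 30.8%, a mean of 26.3% ± 4.29 (SD, n = 3). BEND7-202 took 48.1, 37.6 and 50.4% in CON, 45.1, 43.6 and 38.4% in LOW, and 31.2, 12.2 and 19.3% in HIGH, where no library overlapped with the other groups. TCONS_00066136 had the largest share in 8 of the 9 libraries, with 54.6% ± 6.79 in CON, 57.7% ± 3.49 in LOW and 52.7% ± 7.95 in HIGH, and overlapped in all comparisons. The exchange of shares thus lay between both annotated transcripts, whose upper ends are the same and whose lower ends are 1680 bases apart. Among annotated transcripts alone the difference between HIGH and CON was 57.0 points, and shares of the count table gave 31.5 points. The scaled total of BEND7 was 6.30 ± 2.44 FPKM in CON, 6.34 ± 0.925 in LOW and 7.06 ± 1.59 in HIGH, with overlap in every comparison.

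**Figure D3:**
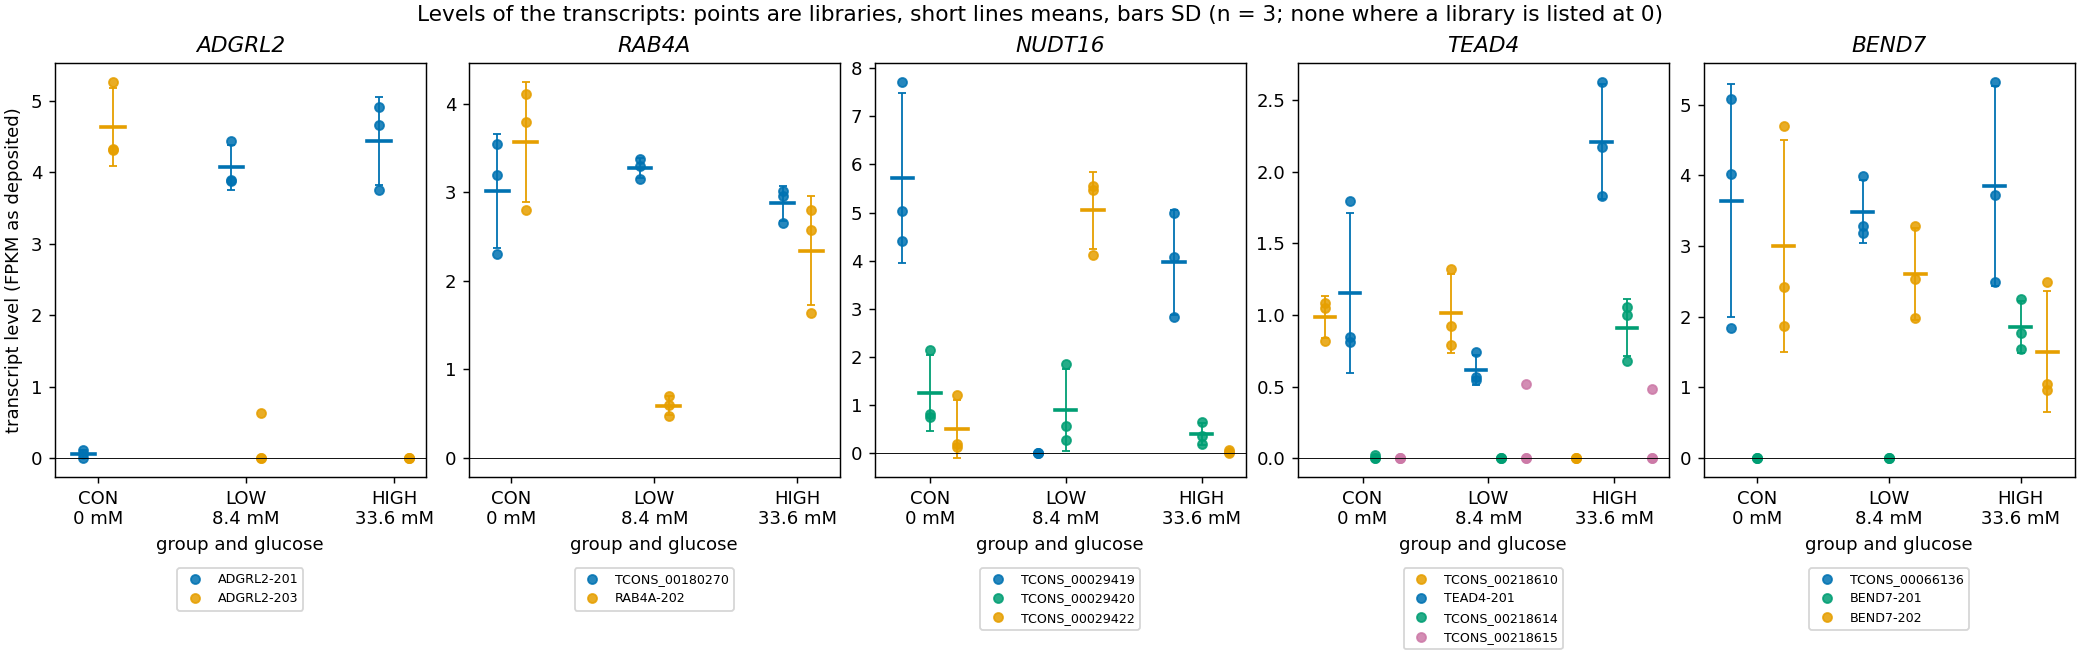
Each point is a library, with the deposited FPKM of a transcript on the vertical axis and the 3 glucose groups on the horizontal axis; short lines are means and bars SD (n = 3), left out where a library is listed at 0. BEND7-201 appears in HIGH alone (1.54 to 2.25 FPKM), and RAB4A-202 is lowest in LOW (0.481 to 0.696 FPKM).

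**Figure D4:**
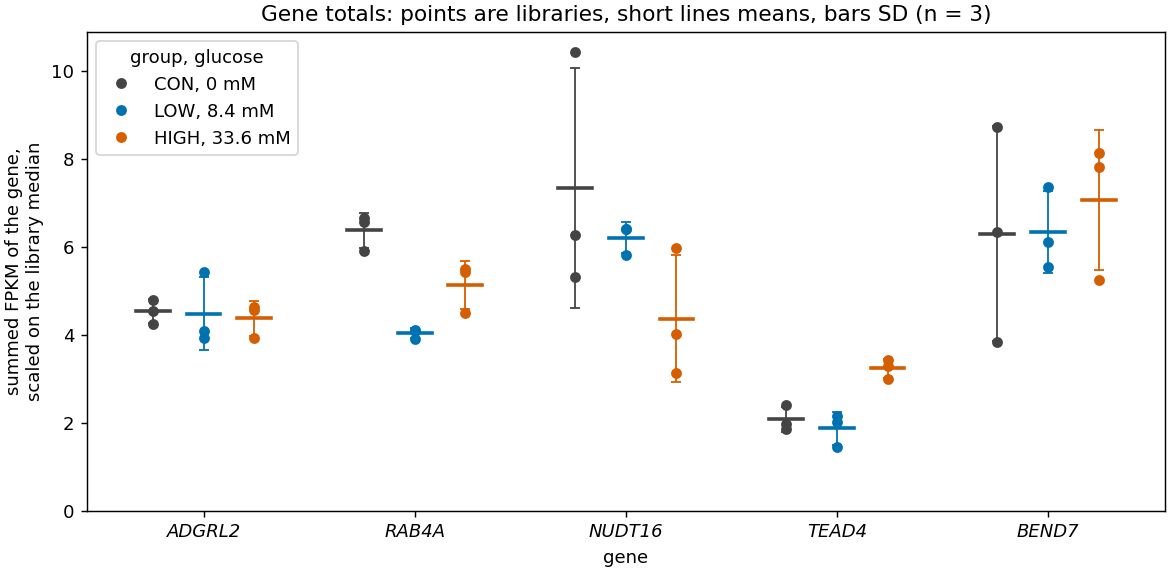
The summed FPKM of each gene, scaled on the library median, is plotted for the 9 libraries, with group means and SD (n = 3). ADGRL2 has means of 4.53, 4.48 and 4.37 in CON, LOW and HIGH, whereas RAB4A has 6.37, 4.04 and 5.13 and TEAD4 2.08, 1.87 and 3.24.

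The 5 genes thus differed in how shares and totals went together. In ADGRL2, BEND7 and, once scaled, NUDT16 the totals overlapped between all groups, in RAB4A the group with the smallest share of RAB4A-202 also had the lowest total, and in TEAD4 the group without TCONS_00218610 had the highest. Scaled totals did not overlap in 1 of the 5 genes between CON and LOW (6.39% of all genes tested), in 2 between CON and HIGH (9.35%) and in 2 between LOW and HIGH (18.7%), and nothing is read from these counts either. The ends of the transcripts whose shares moved in opposite directions also differed between the genes. The leading transcript, the one with the largest range of group means, and its main partner had both ends in common in ADGRL2, both within 50 bases in ADGRL2 and NUDT16, and at least 1 end within 50 bases in 4 of the 5 genes. Over the 4861 genes with such a pair, 13.1% had both ends in common, 18.2% had both within 50 bases and 53.4% had at least 1.

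For the background, shares were compared over the 18260 transcripts of 5324 genes with a summed FPKM of at least 1 in every library. Of the 18 transcripts of the 5 genes, 14 passed the minimum mean share of 1%. Between CON and LOW, 7 of these from 4 genes did not overlap (8.45% of all transcripts tested), between CON and HIGH 9 from 4 genes (9.24%), and between LOW and HIGH 9 from 4 genes (11.8%). The gene with overlap throughout was BEND7 for CON and LOW, RAB4A for CON and HIGH, and ADGRL2 for LOW and HIGH. Nothing is read from these counts, since the genes were chosen for such differences.

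Limma on the arcsine square root of the share, with Benjamini-Hochberg adjustment over all transcripts, called 6 transcripts for CON and LOW (0.0329%), 21 for CON and HIGH (0.115%) and 18 for LOW and HIGH (0.0986%). The transcript with the highest FPKM was one and the same within each group but differed between CON and LOW in 15 genes (0.282%), ADGRL2 and NUDT16 among them. For CON and HIGH there were 15 such genes (0.282%), with ADGRL2, and for LOW and HIGH 26 (0.488%), with NUDT16 and TEAD4. RAB4A and BEND7 were in no such set, and nothing is read from these memberships, since the genes were chosen by their shares.

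Over the leading transcripts of all 5324 genes, the median range of the 3 group means was 6.35 percentage points, and the median of the largest range within a group was 13.9 points. ADGRL2, with 98.8 points between groups and 12.4 within, had the largest range of means of all, and NUDT16, with 90.6 and 15.2, the next. TEAD4 had 56.3 points between groups and 26.7 within, and counting TEAD4 itself 47 genes reached that range, 4 of them with as little spread. RAB4A (38.9 and 17.4 points) was 1 of 154 genes and BEND7 (26.3 and 8.56 points) 1 of 427, with 5 and 2 genes at as small a spread. Nothing is read from these ranks, since the 5 genes were chosen by the same shares. A listing at 0 in one library and a share of 10% or more in another of the same group was found in 2734 transcripts (15.0%), and in ADGRL2-203 and TCONS_00218615 among the 14 (14.3%).

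**Figure D5:**
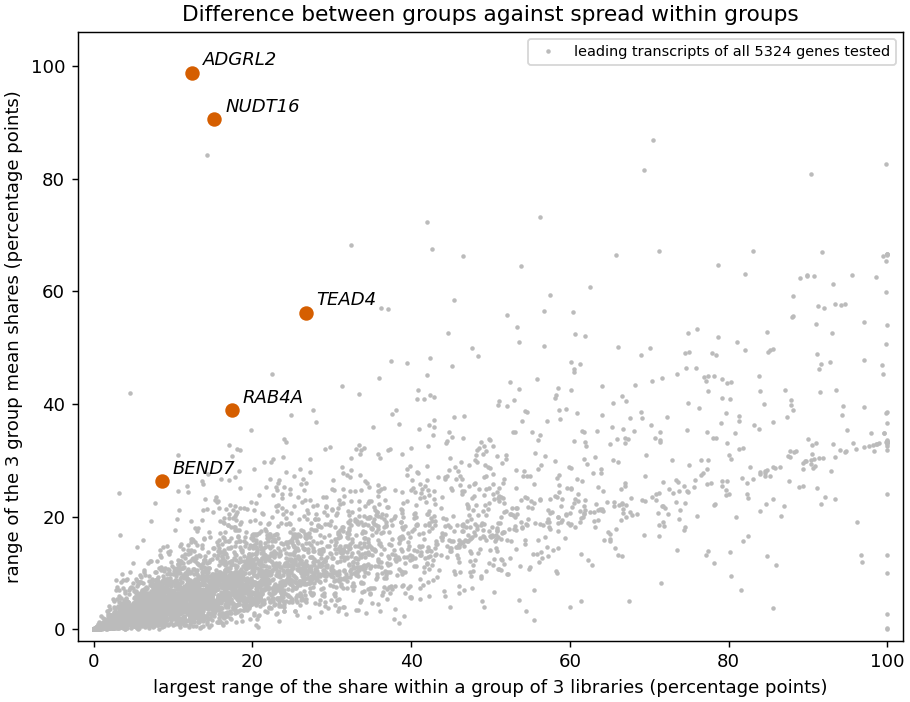
Each grey point is the leading transcript of 1 of 5324 genes, with the largest range of its share within a group of 3 libraries on the horizontal axis and the range of the 3 group mean shares on the vertical axis, both in percentage points. ADGRL2 (98.8 against 12.4) and NUDT16 (90.6 against 15.2) are the uppermost points, and BEND7 (26.3 against 8.56) is at the left of the cloud.

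The transcripts of other genes whose shares ran most nearly parallel to the leading transcripts were sought over the 9 libraries, which share their depth and groups, among 18260 transcripts. For ADGRL2-201 these were ST3GAL1-AS1 (Pearson r = 0.941), SLC35A5-201 (0.933) and TCONS_00191221 (0.933), and for RAB4A-202 KIAA1217-201 (0.987), TCONS_00226451 (0.959) and TCONS_00043034 (0.944). TCONS_00226451 also headed the list for TCONS_00029419 of NUDT16 (0.966), ahead of TCONS_00149346 of PFDN6 (0.952) and TCONS_00195836 (0.945). For TCONS_00218610 of TEAD4 they were EIF4G3-202 (0.971), GNA14-201 (0.962) and PPIE-201 (0.942), and for BEND7-201 TCONS_00080582 (0.998), TCONS_00233218 of HAUS8 (0.989) and TCONS_00095301 (0.981). A parallel course did not mean a like size. ST3GAL1-AS1 had a mean share of 0.955% in CON and 10.6% in LOW, and GNA14-201 had 99.97% in CON and 99.8% in HIGH, while TCONS_00095301 had 11.2% in CON, 4.75% in LOW and 89.0% in HIGH and TCONS_00080582 31.1% in HIGH against 0% in CON and LOW.

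The neighbours of the 5 genes in their pathways, and the factors that make transcripts, were then examined at the gene level by limma on log2(FPKM + 0.1) over 25527 genes. In each comparison 2 genes passed an adjusted p-value of 0.05 over all genes (0.00783%), and none of the list members was among them. At an unadjusted p-value of 0.05 the shares of all genes were 1.94% for CON and LOW, 6.51% for CON and HIGH and 7.63% for LOW and HIGH. The median log2 difference over all genes was -0.01, -0.07 and -0.06 in that order.

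Of 42 splicing regulators tested, 3, 2 and 5 passed the unadjusted threshold in the 3 comparisons, with medians of -0.08, -0.12 and 0.07. HNRNPA1, a splicing repressor with many near-identical copies in mammalian genomes between which reads may be split, had 5.88 ± 3.59 FPKM in CON, 12.8 ± 5.37 in LOW and 5.51 ± 2.09 in HIGH, and the log2 difference of CON over LOW was -1.30 (SE 0.56). TRA2A, a splicing activator, had 3.64, 5.61 and 6.18 FPKM, and KHDRBS3 0.194, 0.216 and 0.0247. Of 15 polyadenylation and transcription start factors, 0, 4 and 3 passed it, with medians of -0.04, 0.21 and 0.22. TAF7, a subunit of the general factor TFIID, had 33.4 ± 9.003 FPKM in CON, 32.9 ± 2.78 in LOW and 22.4 ± 5.68 in HIGH, CPSF4 had 2.07, 1.03 and 1.62, and TAF4 2.08, 2.10 and 2.88.

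The partners of ADGRL2 were tested in 7 latrophilins and ligands, of which 0 passed the unadjusted threshold in any comparison, with medians of -0.15, -0.40 and -0.19. FLRT3, a ligand, had 13.3, 14.7 and 17.1 FPKM in CON, LOW and HIGH, UNC5B 0.831, 0.870 and 1.32, and TENM3 0.143, 0.120 and 0.283. Beside RAB4A, 24 genes of endosome recycling and GLUT4 traffic had 0, 1 and 0 such genes and medians of -0.06, -0.05 and -0.09. The glucose transporter SLC2A3 had 0.953, 1.30 and 1.57 FPKM, SLC2A4 0.181, 0.0699 and 0.1001, and RAB35 5.43, 8.05 and 7.96.

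Beside NUDT16, 23 nudix and decapping genes had 0, 3 and 2 members past the unadjusted threshold, all higher in CON or LOW than in HIGH, and medians of 0.01, 0.12 and 0.16. NUDT16L1, a close relative, had 4.04 ± 0.787 FPKM in CON, 3.00 ± 0.459 in LOW and 2.26 ± 0.367 in HIGH, and CON over HIGH gave a log2 difference of 0.81 (SE 0.20, limma adjusted p = 0.664 over all genes). NUDT14 had 3.77, 3.20 and 2.21 FPKM and NUDT1 7.39, 6.89 and 4.90. Around TEAD4, 24 Hippo pathway genes and YAP/TEAD targets had 0, 2 and 3 members past it, with medians of 0.01, -0.08 and -0.04. The YAP/TEAD target CCN1 had 43.7 ± 20.6 FPKM in CON, 45.8 ± 6.72 in LOW and 88.5 ± 36.9 in HIGH, with a log2 difference of -1.06 (SE 0.38, limma adjusted p = 0.664) for CON over HIGH, CCN2 had 450, 414 and 657, and MOB1B 10.2, 16.8 and 11.1. Beside BEND7, 5 BEN domain genes had 0, 1 and 1, with medians of 0.02, 0.07 and 0.05, and NACC2 had 3.55, 3.16 and 5.00 FPKM, BEND5 3.64, 2.96 and 2.37, and NACC1 8.37, 8.93 and 10.4.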

How the data were processed

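RNA-seq of 9 libraries of GCs was used, with groups taken from the sample titles and treatments. Per the study's methods, rRNA was removed, paired reads were aligned with Hisat2 and transcripts assembled with Stringtie, and the submitters' processing notes also name TopHat2, STAR 2.5.1b and HTSeq 0.6.0. FPKM values of transcripts and genes were deposited by the authors, and 0 columns were left without a sample. The deposited count table of transcripts proved to be a rescaled score. Every value of 200 or more outside the Ensembl genes without a symbol (21833 to 27481 transcripts per library) lay within 3% of FPKM times genomic span times a factor per library. The count table was used only for these factors and 1 alternative.

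Shares were computed from FPKM as deposited. Limma (version 3.58.1, R 4.3.3, empirical Bayes with a trend) was fitted to the arcsine square root of the shares of genes with a summed FPKM of 1 or more in every library and a mean share of 1% or more. For gene levels it was fitted to log2(FPKM + 0.1) for genes with 0.1 FPKM or more in 3 libraries, scaled on the median of 10066 genes, with Ensembl genes without a symbol scaled apart. All 9 libraries entered 1 model. Both procedures were tested on simulated data, and the outcome is not reported here. Fold changes on this scale understate the change of low genes. Tables were made in Python 3.11.15 with pandas 2.3.3 and numpy 2.4.6.

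Members and gene lists were chosen with earlier results of these data known. Named were all transcripts of the 5 genes, the 3 transcripts of other genes with the highest correlation of shares, and from each list the 3 genes with the largest log2 difference. The 5 symbols matched RefSeq (assembly ARS-UI_Ramb_v3.0), which was used for names only.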

Additional observations from a re-analysis of the deposited data

How the results depend on the processing

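The shares of the leading transcripts of ADGRL2, NUDT16, TEAD4 and BEND7 kept their direction under every setting that gave a value, and that of RAB4A under all but annotated transcripts alone, where RAB4A-202 is nearly the whole gene and no direction is read. With 0.1 FPKM added to each transcript the differences were 92.6 points for ADGRL2, 83.2 for NUDT16 and 45.5 for TEAD4. Among annotated transcripts alone they were 0.637 for RAB4A and 57.0 for BEND7, and shares of the deposited counts gave 21.2 and 31.5, whereas NUDT16 and TEAD4 have no value among annotated transcripts, because their leading transcripts were assembled. Leaving out each library in turn gave 98.3 to 99.3 points for ADGRL2, 33.9 to 42.6 for RAB4A, 88.0 to 91.9 for NUDT16, 52.3 to 61.2 for TEAD4 and 24.1 to 28.4 for BEND7. A library of the group outside the comparison does not enter the difference, so leaving it out changed nothing. The genes were chosen for these share differences in the same libraries, so nothing is read from a kept direction. With each library left out in turn, log2 differences of the totals ran from 0.62 to 0.71 for RAB4A (CON over LOW), -0.81 to -0.34 for NUDT16 (HIGH over LOW), -0.92 to -0.63 for TEAD4 (LOW over HIGH), -0.10 to 0.02 for ADGRL2 and -0.10 to 0.49 for BEND7 (HIGH over CON).

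Counts of calls by limma moved more. For shares in CON and LOW (6), CON and HIGH (21) and LOW and HIGH (18), a minimum of 0.1 FPKM gave 11 in the first, a minimum of 5 FPKM gave 3 and 8 in the other two, and annotated transcripts alone gave 2, 9 and 5. Leaving out 1 library gave 6 to 30, 8 to 30 and 10 to 34 calls. Without LOW replicate 3 there were 30, 8 and 34, without CON replicate 2 there were 10, 9 and 10, without LOW replicate 2 there were 8, 8 and 11, and without HIGH replicate 1 there were 12 in CON and HIGH. CON and LOW also had 20 without CON replicate 1, 15 without CON replicate 3 and 11 without LOW replicate 1. For gene levels (2 each), fits to the compared groups alone gave 1 in CON and HIGH and 6 in LOW and HIGH, and leaving out 1 library gave 0 to 5, 2 to 8 and 1 to 5: 4, 6 and 5 without CON replicate 1, 5, 8 and 4 without CON replicate 3, 1, 2 and 1 without LOW replicate 1, 0 (390 at an unadjusted p under 0.05), 3 and 1 without LOW replicate 3, and 2, 4 and 1 without HIGH replicate 3.

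In the main fits, libraries of the same replicate number were not paired, since the correlation of their deviations did not exceed 0.1 in every pair. This rule does not settle whether the numbers mark pairs, and the main calls and list counts were made without pairing. The correlation was -0.03 to 0.09 for shares and -0.03 to 0.41 for gene levels, over 0.1 in 0 and 4 of 9 pairs. For gene levels it was 0.17 to 0.40 in the 3 pairs of replicate 1, and 6 (shares) and 4 (gene levels) of 9 libraries correlated best with their own number in both other groups. With the replicate number as a block, shares gave 6, 7 and 8 calls and gene levels 4, 3 and 2, with 713, 3648 and 3946 genes at an unadjusted p under 0.05 in place of 495, 1662 and 1948. Tests with edgeR and DESeq2 were not run, because the deposited count table of transcripts holds no counts of reads. Groups of 3 libraries and low FPKM limit the precision.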
